A study of Mus musculus with 48 samples.

Results

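The comparison described here was that of heterozygous with wildtype mice after maternal separation, that is, 8 Tph2+/- MS libraries against 8 Tph2+/+ MS libraries of the 48 libraries of the series. Members were taken by their labelled genotype and condition, and all 187695 methylated loci of the series were tested in them. All mice were males of 4 months of age and the labelled strain C57BL/6, bred from Tph2+/- parents that had been backcrossed to C57BL/6N. MS mice had been taken from their dams for 3 h per day from postnatal day 2 until day 15. The matching animals without separation (C, 8 Tph2+/- and 8 Tph2+/+ libraries) and the null mutants (Tph2-/-, 8 MS and 8 C libraries) are used for comparison only. Tph2+/- mice carried 1 inactive Tph2 allele in every cell from conception on. DNA near Tph2 on chromosome 10 is inherited along with that allele, so the allele and that DNA cannot be told apart here. The mice had been through behavioral testing before the brains were taken, the amygdala of both hemispheres was powdered together, and the labels do not tie libraries to litters, so litter effects cannot be told apart from the spread between animals.

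Tph2 encodes tryptophan hydroxylase 2, the enzyme that sets the rate of serotonin synthesis in neurons of the raphe nuclei. These neurons project densely to the amygdala, a brain region that processes threat and social signals, whereas amygdala cells themselves receive serotonin and do not make it. DNA methylation is the addition of a methyl group to cytosine, in mammals mostly at CpG, a cytosine followed by guanine. In MBD-seq, sheared DNA is pulled down by a protein domain that binds methylated CpG, and the fragments are sequenced. A count at a locus rises with the number of methylated CpG in the captured fragments and with the number of DNA copies of the locus, so methylation and copy number cannot be told apart by the count alone. Since the powder holds all cells of the tissue, a change in cell composition and a change within cells cannot be told apart either.

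The locus with the clearest difference lay in the pseudogene Gm32802 on chromosome 10, the chromosome of Tph2. It belongs to a cluster of 10 pseudogenes (Gm32717, Gm9029, Gm9030, Gm32802, Gm9040, Gm9044, Gm9045, Gm9046, Gm9048 and Gm9049) that align to the transcript of Cdc5l, a splicing factor gene on chromosome 17, at 97.4 to 97.7% identity over 2437 to 2842 bases. The sequences that follow are RefSeq sequence of GRCm38 and are shown because a read from such near-identical copies can fit more than 1 of them. The first is the 150-base stretch of the leading locus with the most CpG, at chr10:118258580-118258729 on the plus strand, and the others are its best matches in 3 further pseudogenes, at chr10:118326928-118327077, chr10:118343214-118343350 and chr10:118246169-118246304, all read on the minus strand. Capitals mark each CpG.
Gm32802: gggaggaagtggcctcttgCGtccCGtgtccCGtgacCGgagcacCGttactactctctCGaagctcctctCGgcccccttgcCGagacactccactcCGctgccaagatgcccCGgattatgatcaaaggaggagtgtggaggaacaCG
Gm9040: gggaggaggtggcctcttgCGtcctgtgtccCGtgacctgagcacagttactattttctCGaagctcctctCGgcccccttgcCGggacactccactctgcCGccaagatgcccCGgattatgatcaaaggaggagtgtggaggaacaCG
Gm9046: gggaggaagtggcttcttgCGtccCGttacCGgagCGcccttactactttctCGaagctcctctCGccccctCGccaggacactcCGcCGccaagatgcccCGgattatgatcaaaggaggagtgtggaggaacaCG
Gm9029: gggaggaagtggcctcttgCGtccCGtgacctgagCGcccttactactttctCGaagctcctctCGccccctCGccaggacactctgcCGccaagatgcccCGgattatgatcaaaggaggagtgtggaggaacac
The Gm32802 stretch holds 11 CpG and recurs without a single difference in Gm32717 at chr10:118240739-118240888 on the opposite strand. The Gm9040 stretch differs from it by 9 edits and holds 8 CpG, that of Gm9046 by 20 edits with 11 CpG, and that of Gm9029 by 21 edits with 8 CpG.

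The libraries of both groups overlapped in size. They held 8981656 to 14114786 counts in Tph2+/- MS and 9039846 to 11411845 in Tph2+/+ MS, a difference that did not pass a 2-sided exact permutation test (p = 0.0852). A locus had a median count of 26.25 in these 16 libraries, and the median standard error of a log2 fold change was 0.21. Of 14 measures per library (total count, shares of counts by locus class, CpG content and chromosome), none passed the exact permutation test after adjustment, with 0.0832 as the smallest adjusted p. The 5 loci that took the most counts held 25.7% of them in Tph2+/- MS and 29.4% in Tph2+/+ MS (exact p = 0.0238 before adjustment). In the libraries numbered S18 to S26 (2 Tph2+/- MS and 3 Tph2+/+ MS) and S27 to S41 (6 and 5), values are given apart where a result rests on them, without knowledge of what the sample numbers stand for. Values per library are given as CPM, the count as a share of the library scaled by the trimmed mean of M-values (TMM). Fold changes and p-values are from edgeR's quasi-likelihood test, and adjusted p-values are Benjamini-Hochberg values over all 187695 loci.

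At the Gm32802 locus (chr10:118258290-118259228, GRCm38, exon of the pseudogene, 939 bp with 23 CpG) the Tph2+/+ MS libraries had from 3.53 over a median of 4.80 to 6.71 CPM. The Tph2+/- MS libraries had from 1.86 over a median of 2.40 to 3.05 CPM. All 8 heterozygous libraries therefore lay below all 8 wildtype libraries. The means were 2.39 ± 0.403 and 4.87 ± 0.995 CPM (SD, n = 8 each), a fold of 0.496 (log2 fold change −1.01, SE 0.17, edgeR adjusted p = 0.0332). It was the only locus of 187695 with an adjusted p under 0.05, a share of 0.000533%, where DESeq2 gave 3 such loci and limma voom none. Within the libraries S18 to S26 the log2 ratio of the means was −1.05, and within S27 to S41 it was −0.93. The adjusted p was over 0.05 when any 1 of 12 of the 16 libraries was left out (up to 0.223), whereas the log2 fold change then stayed between −1.07 and −0.94. The 12 were all libraries but replicates 4 and 7 of Tph2+/+ MS and replicates 1 and 5 of Tph2+/- MS. With all 16, the adjusted p was 0.114 in limma voom and 0.352 in edgeR with total counts in place of TMM, and it was 1 with all 48 libraries of the series in the fit.

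Neighbouring loci of the same cluster were lower as well, with unadjusted p-values past the limits of the study (p under 0.01 before adjustment, with a change beyond 0.2 on the log2 scale). At Gm9046 (chr10:118340784-118344240) the wildtype libraries had 13.5 to 18.2 CPM with a median of 15.7, and the heterozygous libraries 9.62 to 12.5 CPM with a median of 10.4, again without overlap (log2 fold change −0.56, SE 0.13). At Gm9029 (chr10:118244249-118245233) the range was 4.40 to 6.44 CPM with a median of 5.44 in Tph2+/+ MS and 2.36 to 4.48 CPM with a median of 3.24 in Tph2+/- MS. Here 7 of 8 heterozygous libraries lay below all wildtype libraries (log2 fold change −0.71, SE 0.15). The Gm9029 stretch printed above lies in the next locus of that pseudogene (chr10:118245326-118246727). That locus had a log2 fold change of −0.25 and did not pass the limits (unadjusted p = 0.103 in edgeR). At Gm32717 (chr10:118240183-118241196), whose sequence includes the copy of the Gm32802 stretch, the ranges were 3.33 to 6.13 CPM with a median of 4.44 and 1.87 to 3.44 CPM with a median of 2.43 (log2 fold change −0.76, SE 0.17). The 939 bases of the Gm32802 locus and this Gm32717 locus are identical in the reference, so their separate counts are uncertain and only a value over the copies together is well defined.

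To choose loci of this region without the MS libraries, the 8 Tph2-/- C libraries were set against the 8 Tph2+/+ C libraries, a comparison that was added after the counts had been seen. It had 21 loci with an adjusted p under 0.05 (0.0112% of all loci), all on chromosome 10 between positions 117489588 and 118349742 and all lower in Tph2-/- C, and their log2 fold changes there had a median of −1.12. In Tph2+/- MS against Tph2+/+ MS, which shares no library with that choice, all 21 of these loci had a log2 fold change below 0. It ranged from −1.01 to −0.09 with a median of −0.51, beside a median of −0.006 over all loci. Of the 21, 11 passed the limits of the study, against 0.622% of all loci in either direction and 0.324% in the lower direction, and 16 had an unadjusted p under 0.05, against 3.77% of all loci. At 2 of them the libraries of the groups did not overlap, which was the case at 0.0181% of all loci, or 0.00906% counted in the lower direction alone.

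Summed over the 21 loci, the Tph2+/+ MS libraries held from 121.46 over a median of 141 to 160 CPM. The Tph2+/- MS libraries held from 92.6 over a median of 99.7 to 116 CPM. The groups did not overlap, with means of 141 ± 11.5 and 102 ± 8.83 CPM (SD, n = 8 each). The same order held within S18 to S26 (143.5 and 102.6 CPM) and within S27 to S41 (139 and 102 CPM), and with total counts in place of TMM (136.3 and 105.4 CPM). Without separation the sums were 130 ± 12.1 CPM in Tph2+/+ C, 98.2 ± 7.72 in Tph2+/- C and 60.1 ± 6.64 in Tph2-/- C, of which the first and the last had served to choose the loci. In Tph2-/- MS the sum was 79.2 ± 20.3 CPM, from 59.8 to 117.8. The study left 2 Tph2-/- MS libraries out of its methylation analysis as outliers. The labels do not name them, so all 8 are used here. The highest Tph2-/- MS values, 94.5 and 117.8 CPM, were from replicates 2 and 3, whose TMM factors were 0.800 and 0.571. The next highest, 91.0 CPM, was from replicate 5, whose TMM factor was 1.068. With total counts in place of TMM the highest Tph2-/- MS sum was 97.2 CPM. Whether the TMM factors account for the high sums was not tested. At each of the 21 loci the genotype effect in MS minus that in C was also computed, in 1 fit of the 32 libraries of Tph2+/+ and Tph2+/-. None of the 21 had an unadjusted p under 0.05 for this difference in edgeR (smallest 0.0786).

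**Figure D1:**
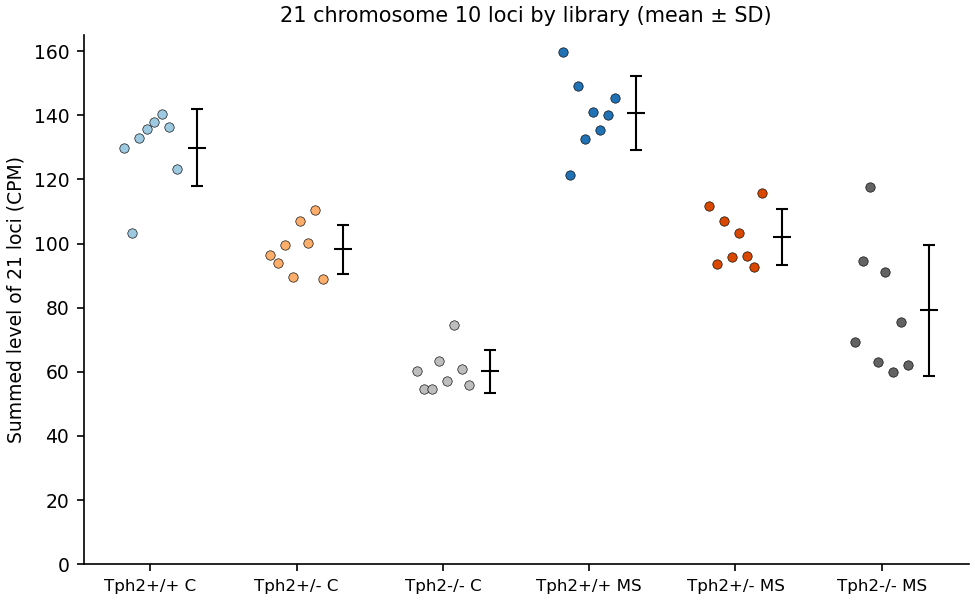
Summed CPM (vertical axis) of the 21 chromosome 10 loci in each library, by genotype and condition, with 1 point per library and the mean and SD of each group. The 8 Tph2+/- MS libraries lie between 92.6 and 116 CPM, all below the 8 Tph2+/+ MS libraries at 121.46 to 160 CPM.

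Of the 21 loci, 18 lay within 122.84 kb that began 3.04 Mb from Tph2, from the intergenic locus beside Gm9585 (chr10:118226899-118227884) to Gm9048 (chr10:118346710-118349742). This span held 27 loci, of which 24 were lower in Tph2+/- MS and 10 passed the limits. The 9 loci of the span that were not among the 21 had a median log2 fold change of −0.03, from −0.35 to 0.31, and none passed the limits. Of the protein-coding genes nearby, Il22, which encodes interleukin 22, had 3 loci between −0.17 and 0.10 on the log2 scale. Iltifb, its duplicate inside the cluster, had 2 loci at −0.19 and 0.22. Ifng, which encodes interferon gamma, had 2 loci at −0.43 and −0.16. None of these passed the limits, nor did any of the 13 loci at Mdm1, a gene for a microtubule-binding protein, whose median was −0.01. Just beyond the last of the 21, at Gm9049, a further locus (chr10:118352057-118354448) was lower (log2 fold change −0.45, unadjusted p = 0.00124 in edgeR). Cdc5l, the gene that the pseudogenes resemble, had 1 locus, with a log2 fold change of 0.46 (unadjusted p = 0.0817 in edgeR).

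In the reference, 20 of the 21 loci had at least 1 further copy (over 95% identity across at least 50% of the locus), and 15 were over 95% identical to another of the 21. For 8 of these 15 the best match lay on the opposite strand. The counts of the separate copies therefore depend on how the aligner placed reads that fit several of them. The locus without a second copy, chr10:117554938-117555914 near Gm32235, was also lower, with 2.03 to 3.85 CPM in Tph2+/+ MS (median 3.43) and 1.66 to 3.14 CPM in Tph2+/- MS (median 2.36). Its log2 fold change of −0.48 (SE 0.19) did not pass the limits (unadjusted p = 0.0118 in edgeR).

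Tph2 itself, at chr10:115078641-115185022 on the minus strand, held 15 loci and none of them passed the limits. Their log2 fold changes ranged from −0.43 to 0.15 with a median of 0.01, and 7 were below 0. The smallest p was 0.0483 in edgeR, unadjusted, at an intronic locus (chr10:115109540-115110593) with a log2 fold change of −0.38. The sum of the 15 loci was 38.9 ± 3.20 CPM in Tph2+/- MS and 40.3 ± 3.13 CPM in Tph2+/+ MS (SD, n = 8 each), a difference within the spread of the libraries (exact permutation test, p = 0.393) whose sign turned with total counts in place of TMM (1.07 CPM higher in Tph2+/-, exact p = 0.644). These loci do not check the genotype, because whether any of them covers the inactivated part of the gene is not given in the sources used here. The nearest locus downstream (chr10:115072171-115073639), 5002 bp from the gene, had 2.79 to 4.85 CPM in Tph2+/+ MS (median 3.99) and 1.80 to 4.36 CPM in Tph2+/- MS (median 2.98), with overlapping groups (log2 fold change −0.34, unadjusted p = 0.0714 in edgeR). In C the same locus had a log2 fold change of −0.59 (unadjusted p = 0.00202 in edgeR). In Tph2-/- C against Tph2+/+ C it was −0.58 (unadjusted p = 0.00174 in edgeR), close to that of Tph2+/- C. In Tph2-/- MS (all 8 libraries) against the same Tph2+/+ MS libraries it was −1.51.

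Within 10 Mb to either side of Tph2 there were 1900 loci, of which 22 (1.16%) passed the limits, 5 higher and 17 lower in Tph2+/- MS. Of these 22, 11 were among the 21 loci of the cluster region. The remaining 11 were split into 5 higher and 6 lower. Over the 1879 loci of the window outside the 21, the median log2 fold change was −0.003, close to that of all loci.

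**Figure D2:**
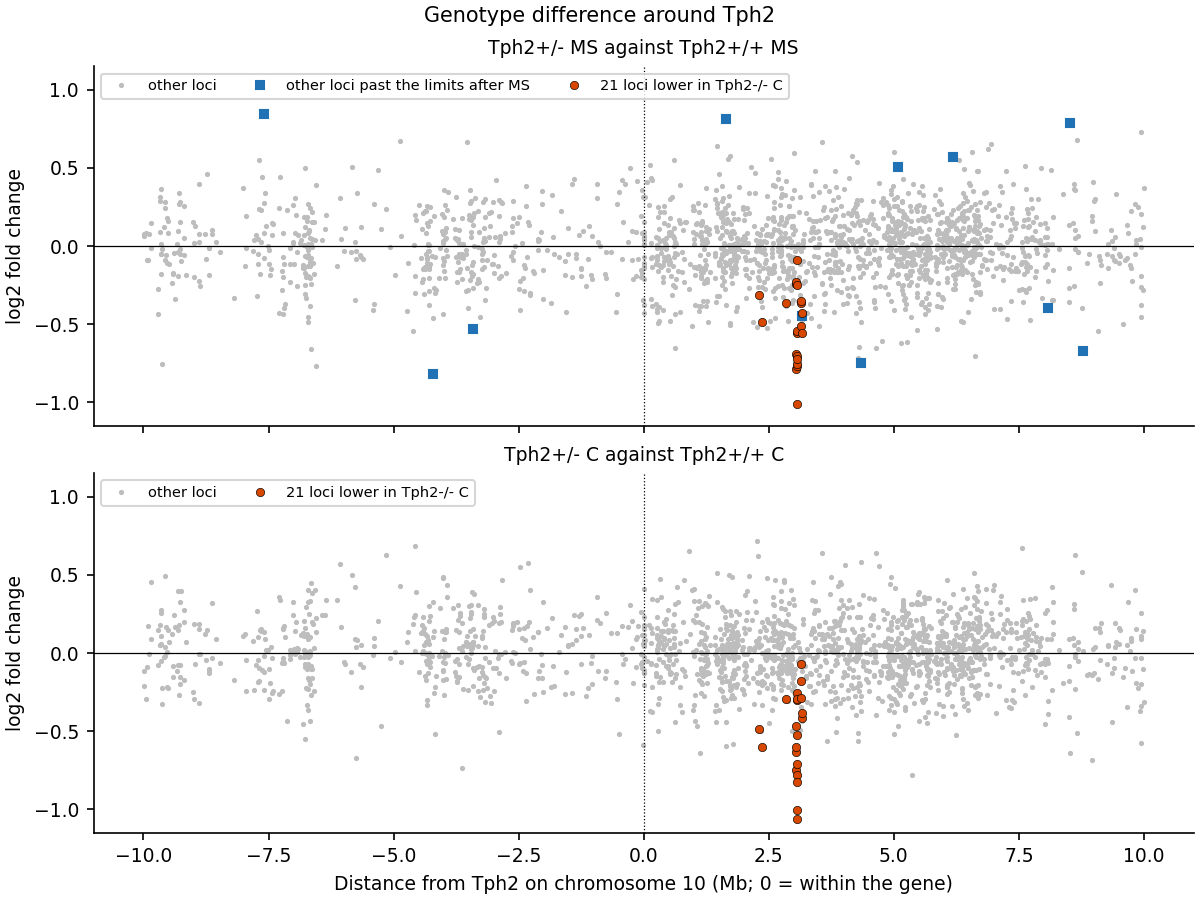
Log2 fold change (vertical axis) of loci within 10 Mb of Tph2 by distance from the gene in Mb (horizontal axis), for Tph2+/- MS against Tph2+/+ MS and for Tph2+/- C against Tph2+/+ C. The 21 loci lower in Tph2-/- C stand between 2.30 and 3.16 Mb from Tph2 and are all below 0 in both comparisons.

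Across the genome 1168 loci (0.622%) passed the limits of the study, 559 higher (0.298%) and 609 lower (0.324%) in Tph2+/- MS. That is fewer than the 1877 loci that 1% of all tested loci amount to. Their log2 fold changes ranged from −1.67 to 1.27 with a median size of 0.65. With total counts in place of TMM the split turned to 1561 higher and 130 lower, so the balance of directions depends on the scaling. Of them, 811 lay in a gene of any kind or within 5 kb of one, 637 protein-coding genes had such a locus, and 58.1% of the 1168 were inside genes, beside 56.9% of all loci. The libraries of the groups did not overlap at 34 loci (0.0181% of all loci), of which 23 passed the limits. Outside chromosome 10 the smallest adjusted p was 0.96, so the loci named from here on have unadjusted support only. They were taken as the 10 of smallest p in each direction at protein-coding genes, and being chosen by that p they are described without further test. A lack of overlap between the groups at such loci is no separate support, as the same libraries gave the p.

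Among the 10 higher loci, an intron of Mtus2 (chr5:147963037-147963825), which encodes a microtubule-binding protein, had 0.755 to 1.72 CPM in Tph2+/+ MS (median 1.20) and 1.73 to 3.04 CPM in Tph2+/- MS (median 2.55). The groups did not overlap (log2 fold change 1.04, SE 0.24). Coding exons of Crtam and Cpne9 did not overlap between the groups either. At Crtam (chr9:40987120-40988343), a surface molecule of activated T cells, the log2 fold change was 0.78 (SE 0.20), with 1.01 to 2.47 CPM in Tph2+/+ MS and 2.48 to 4.56 CPM in Tph2+/- MS. At Cpne9 (chr6:113292213-113293142), a calcium-dependent membrane-binding protein, it was 0.79 (SE 0.21), with 0.810 to 2.58 and 2.67 to 3.90 CPM. Coding exons of Scn4a (chr11:106345136-106346166), the sodium channel of skeletal muscle, and of Tnc (chr4:64008271-64009368), the matrix protein tenascin C, had log2 fold changes of 0.69 and 0.80. Introns of Cadm2 (0.81), a synaptic adhesion molecule, of Tesk2 (1.24, with 2 to 30 counts per library), a kinase of actin regulation, of Il12rb2 (1.07), a subunit of the interleukin 12 receptor, and of Plxnd1 (1.01), a semaphorin receptor, made up the others with Sectm1a. In these loci of Scn4a, Tnc, Cadm2, Tesk2, Il12rb2 and Plxnd1, 6 or 7 of the 8 heterozygous libraries lay above all wildtype ones. At Tnc the highest heterozygous value, 6.5 CPM in replicate 3, stood well above the other 7 (2.39 to 3.99 CPM).

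Among the 10 lower loci, an intron of Efcab14 (chr4:115740838-115741549), which encodes an EF-hand protein, had 2.52 to 3.17 CPM in Tph2+/+ MS (median 2.71) and 0.664 to 2.21 CPM in Tph2+/- MS (median 1.43). These groups did not overlap (log2 fold change −0.94, SE 0.22). At Cracr2a (chr6:127639699-127640676), a regulator of calcium entry, 7 of 8 heterozygous libraries lay below all wildtype ones (log2 fold change −0.90, SE 0.20). An intron of Dcstamp (chr15:39756455-39757247), needed for the fusion of osteoclasts, had the lowest log2 fold change of the group, −1.08 (SE 0.26). A coding exon of Vwf, the von Willebrand factor of blood vessels and platelets, stood at −0.92. The other loci were beside Litaf (−0.69), an endosomal protein, Cchcr1 (−1.04), a coiled-coil protein, and Megf6 (−0.66), a protein with EGF-like repeats, and in introns of Casz1 (−0.91), a zinc finger transcription factor, and Ulk4 (−0.81), of the serine/threonine kinase family. All 20 of these loci still passed the limits when any 1 library was left out. This is no independent check, as they had been chosen for their small p in the same libraries.

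Promoters, taken as 1 kb before to 0.5 kb after a gene start, held 27 higher and 47 lower loci, 0.696% of the 10635 promoter loci beside 0.622% of all loci. The most CpG-rich 150 bases of the leading promoter locus in each direction are given in RefSeq sequence of GRCm38, plus strand, with each CpG in capitals. The counts were taken over the whole loci, which hold 26 CpG at Irf1 and 14 at Sectm1a.
Irf1, chr11:53769175-53769324: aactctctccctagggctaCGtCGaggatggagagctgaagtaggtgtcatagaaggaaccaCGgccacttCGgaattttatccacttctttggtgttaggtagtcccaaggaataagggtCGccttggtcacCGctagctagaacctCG
Sectm1a, chr11:121096809-121096958: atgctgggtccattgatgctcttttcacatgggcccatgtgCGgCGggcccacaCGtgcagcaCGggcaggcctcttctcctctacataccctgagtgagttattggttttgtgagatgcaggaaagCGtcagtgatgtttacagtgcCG
The stretches hold 7 CpG at Irf1 and 6 at Sectm1a.

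At the locus 460 bp from Irf1 (chr11:53768215-53769554), which encodes a transcription factor induced by interferon, Tph2+/+ MS libraries had 4.53 to 7.59 CPM (median 4.92) and Tph2+/- MS libraries 2.45 to 4.42 CPM (median 3.47). All heterozygous libraries lay below all wildtype ones (log2 fold change −0.66, SE 0.16). At Sectm1a (chr11:121096438-121097318), which encodes a surface protein of the immune system, the ranges were 0.851 to 2.01 CPM (median 1.63) and 2.19 to 4.15 CPM (median 2.82), the heterozygous libraries all above the wildtype ones (log2 fold change 0.87, SE 0.21). Higher promoter loci also included those of Ebf3 (0.94), a transcription factor of neuronal differentiation, Prss50 (0.68), a protease of the testis, Fbh1 (0.45), a DNA helicase, and Gm35714 (0.47). Lower ones included Prima1 (−0.81), the membrane anchor of acetylcholinesterase in brain, Ppp1r42 (−0.54), a regulatory subunit of protein phosphatase 1, Epb41l4a (−0.66), a membrane-cytoskeleton protein, and Gm33987 (−0.82). Prima1 was high in replicate 1 of Tph2+/+ MS (4.56 CPM, the other 7 at 1.92 to 3.04).

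**Figure D3:**
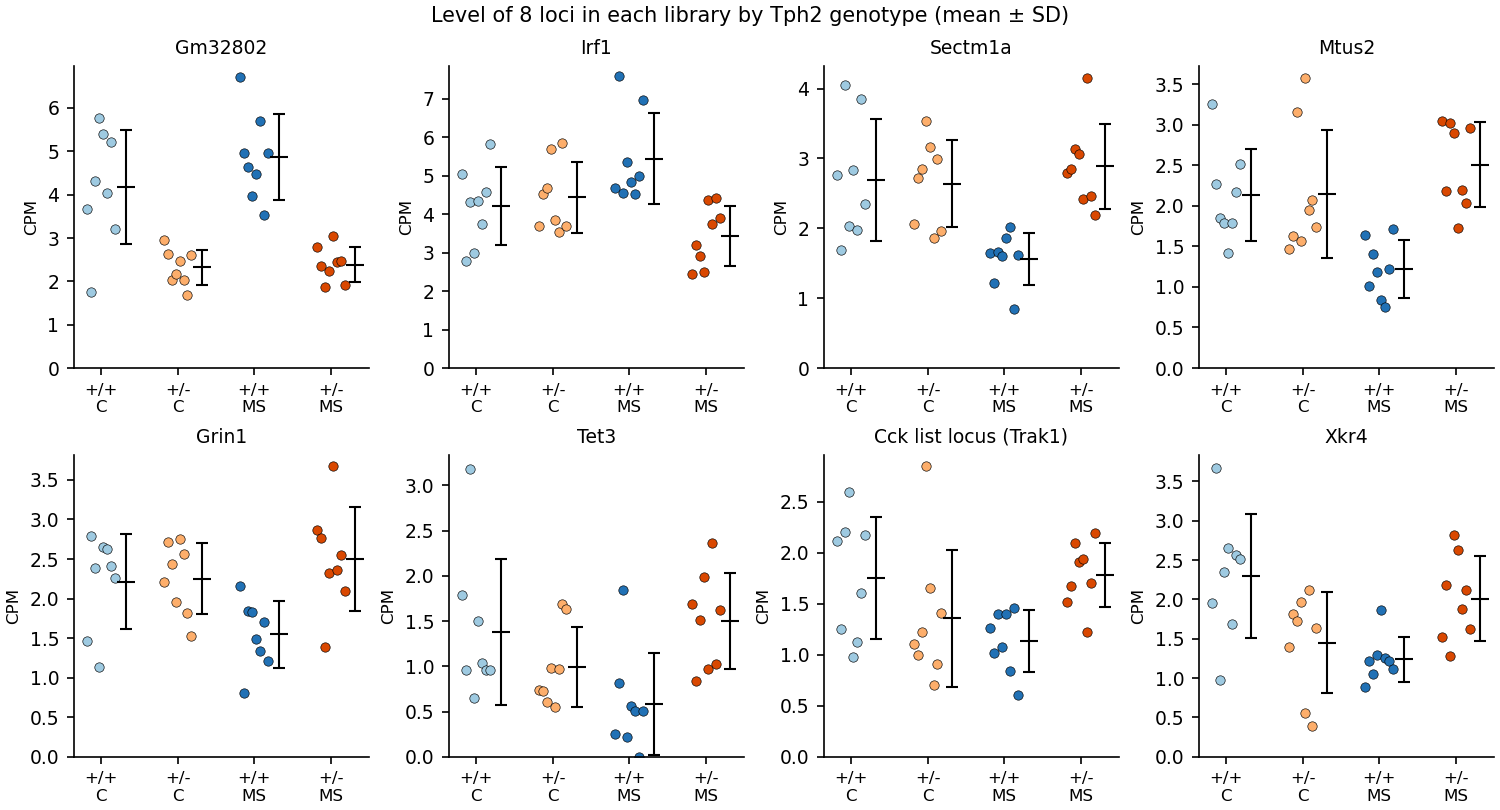
CPM per library (vertical axis) of 8 named loci in Tph2+/+ and Tph2+/- mice of the C and MS conditions (horizontal axis), 1 point per library with the mean and SD of each group of 8. At the Gm32802 and Irf1 loci all Tph2+/- MS libraries are below all Tph2+/+ MS libraries, and at Sectm1a and Mtus2 all are above.

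Comparing the same genotypes without separation, 1272 loci (0.678%) passed the limits in Tph2+/- C against Tph2+/+ C, 2 of them with an adjusted p under 0.05. Outside the cluster region, the direction found in MS was not seen again more often at loci past the limits than elsewhere. Of 1157 loci past the limits in MS and not among the 21, 566 (48.9%) had the same sign in C, beside 48.8% of all loci. Of them, 4 (0.346%) passed the limits in C in the same direction, beside 0.316% of all loci, and 9 (0.778%) in the opposite direction, beside 0.362%. These 4 were an intron of Hs6st3 (chr14:119803379-119804355), a heparan sulfate modifying enzyme, at −0.51 in MS and −0.74 in C, the promoter locus of Epb41l4a at −0.66 and −0.58, Gm6367 at 0.87 and 0.67, and Gm32330 at −0.48 and −0.46. Of the 21 loci of the cluster region, by contrast, all were below 0 in C as well, with a median of −0.48, and 9 passed the limits there, although the wildtype libraries of that comparison had also served to choose them.

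Most loci named above were close to 0 in C. At Sectm1a the C libraries had means of 2.69 ± 0.873 CPM in Tph2+/+ and 2.64 ± 0.616 CPM in Tph2+/- (SD, n = 8 each), against 1.56 ± 0.367 and 2.89 ± 0.608 CPM after separation. Of the 4 means it was thus that of Tph2+/+ MS that lay furthest from the others. The same held at Mtus2, with 2.13 ± 0.569 and 2.15 ± 0.787 CPM in C against 1.22 ± 0.353 and 2.51 ± 0.525 CPM in MS. At Irf1 both MS groups lay away from the C groups, which had 4.21 ± 1.01 and 4.44 ± 0.917 CPM, with 5.44 ± 1.18 CPM in Tph2+/+ MS and 3.43 ± 0.790 CPM in Tph2+/- MS. The log2 fold change in C was −0.15 at Efcab14. Cadm2 (0.40) and Tesk2 (0.51) were higher in both. The difference of the genotype effects was tested in the 32 libraries. In edgeR 1275 loci (0.679%) passed the limits, none had an adjusted p under 0.05 and 7461 an unadjusted p under 0.05. At Gm32802 the difference was −0.19 on the log2 scale (unadjusted p = 0.472 in edgeR), with −0.83 in C and −1.01 in MS. As the other named loci were chosen for their MS difference, their differences of effect are not independent of it.

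**Figure D4:**
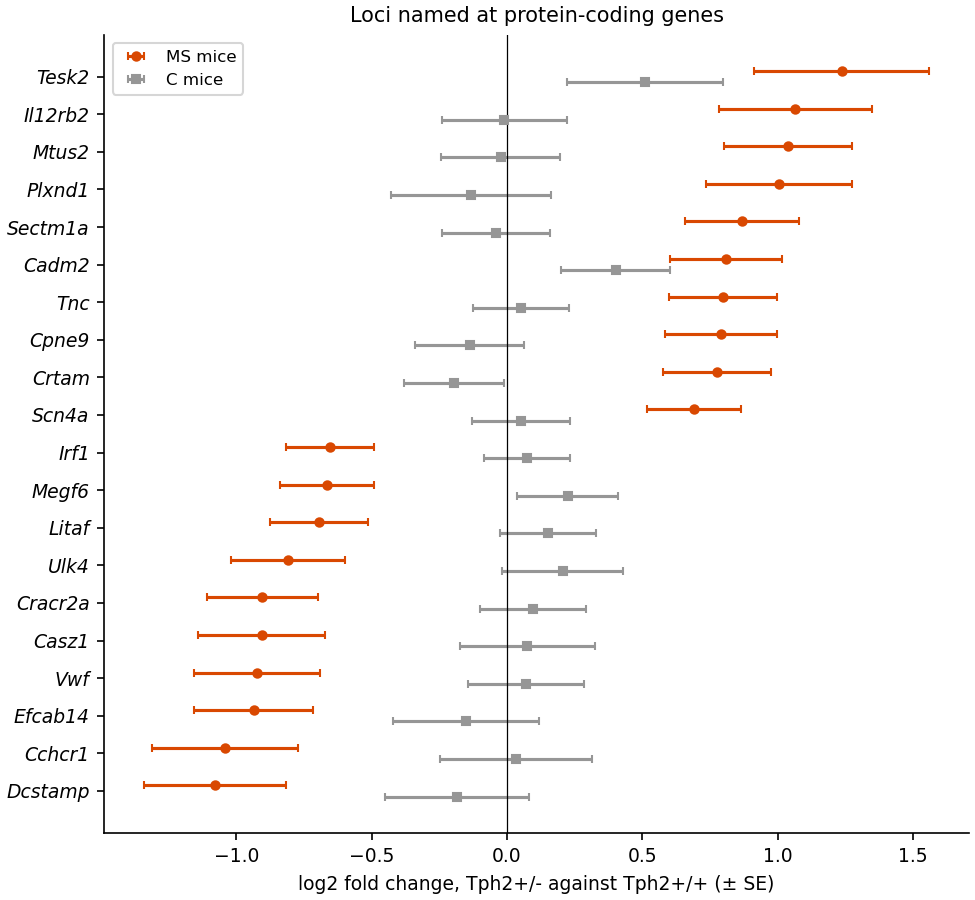
Log2 fold change with SE (horizontal axis) of Tph2+/- against Tph2+/+ after separation (MS, circles) and without it (C, squares) at the 20 loci named at protein-coding genes, ordered by the MS value. In C only Tesk2 (0.51) and Cadm2 (0.40) lie beyond 0.25 on either side of 0.

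In the 8 gene lists, between 0 and 2.80% of the loci of a list passed the limits, beside 0.622% of all loci. In all, 122 loci lay at genes of serotonin synthesis, transport and breakdown, and 59 at serotonin receptors, none past the limits in either direction. The locus of smallest p among the first was a coding exon of Slc29a4, a low-affinity monoamine transporter, with 1.21 to 2.79 CPM in Tph2+/+ MS and 0.503 to 2.00 CPM in Tph2+/- MS (log2 fold change −0.61, unadjusted p = 0.025 in edgeR). None passed among 108 loci at genes of the stress axis, nor among the loci at 20 genes of amygdala peptides and interneuron markers. Their smallest p-values were at Sgk1, a kinase induced by glucocorticoids (log2 fold change −0.61, unadjusted p = 0.0136 in edgeR), and at Reln, the matrix protein reelin (−0.50, unadjusted p = 0.0113 in edgeR). At Sgk1, 7 heterozygous libraries lay below all wildtype ones and the last, replicate 4, above them all (3.48 CPM). Myelin and oligodendrocyte genes, which also stand for another cell class of the powdered tissue, had 77 loci and none past the limits, with a median log2 fold change of 0.03.

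At 20 genes of neuronal activity, neurotrophins and plasticity, 2 loci were higher and 1 was lower past the limits (2.80% of their loci, beside 0.622% of all). Coding exons of Grin1 (chr2:25295381-25296247), the obligatory subunit of NMDA receptors, and Gria1 (chr11:57237588-57238378), an AMPA receptor subunit, were higher. Grin1 had 0.810 to 2.15 CPM in Tph2+/+ MS (median 1.60) and 1.39 to 3.67 CPM in Tph2+/- MS (median 2.46), a log2 fold change of 0.72 (SE 0.23) that was lost to the limits without heterozygous replicate 5. Gria1 had 0.671 to 1.52 CPM and 1.25 to 2.41 CPM (medians 1.10 and 1.85, log2 fold change 0.74). An intron of Grin2a (chr16:9961706-9962511), another NMDA receptor subunit, was lower at −0.67. Without 1 of 6 libraries Gria1, and without 1 of 5 Grin2a, no longer passed the limits. Each of these genes had 1 locus past the limits. The sum of the 6 Grin1 loci was 11.3 ± 1.69 CPM in Tph2+/+ MS and 12.2 ± 1.06 in Tph2+/- MS (SD). In the same order, the 4 Gria1 loci had 6.69 ± 1.33 and 7.51 ± 1.24 CPM, and the 16 Grin2a loci 32.9 ± 1.75 and 32.9 ± 3.02 CPM. Of 120 loci at imprinted genes, which are expressed from 1 parental allele, 1 was lower past the limits (0.833%, beside 0.622% of all loci). It lay at Gm30423 near Grb10 (−0.58) and no longer passed without any 1 of 4 libraries.

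Of 93 loci at genes that write, remove or read DNA methylation, 1 was higher past the limits (1.08%, beside 0.622% of all loci). It lay in a coding exon of Tet3 (chr6:83376667-83377143), an enzyme that oxidizes methylated cytosine. Its most CpG-rich 150 bases, RefSeq sequence of GRCm38 on the plus strand with CpG in capitals, are given because the gene acts on the mark measured here.
Tet3, chr6:83376780-83376929: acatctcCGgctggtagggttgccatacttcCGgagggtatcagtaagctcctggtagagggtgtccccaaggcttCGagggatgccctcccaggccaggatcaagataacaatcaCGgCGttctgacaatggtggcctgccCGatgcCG
The wildtype libraries had 0 to 1.84 CPM there (median 0.505) and the heterozygous libraries 0.839 to 2.36 CPM (median 1.57), with a log2 fold change of 1.27 (SE 0.38) that ranged from 1.10 to 1.80 when single libraries were left out. The groups overlapped, the counts behind these values were 0 to 29 reads, and the highest wildtype value was that of replicate 3. In C the log2 fold change was −0.49. Tet3 had 7 loci, and their sum was 23.9 ± 2.21 CPM in Tph2+/+ MS and 25.3 ± 3.31 CPM in Tph2+/- MS (SD, n = 8 each). The medians of the 8 lists lay between −0.05 (imprinted genes) and 0.03 (myelin), beside −0.006 for all loci.

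From loci with an interaction of genotype and separation, the study had listed those whose assigned gene also differed in RNA. As these were chosen on the same libraries, they are not independent evidence here. Of the 8 loci listed, 4 passed the limits in the present comparison, beside 0.622% of all loci. An intron of Xkr4 (chr1:3583857-3584649), of a family of membrane lipid scramblases, was higher (log2 fold change 0.70, SE 0.25). An intron of Fars2 (chr13:36365737-36366424), the mitochondrial phenylalanyl-tRNA synthetase, was lower (−0.82, SE 0.28). The locus assigned to Nsun2 (chr13:69457460-69458618), whose nearest RefSeq gene is Tent4a at 39334 bp, was lower too (−0.49, SE 0.18). So was the locus assigned to Gm10801 (chr2:98661728-98665716; −0.27), which takes 74282 to 109527 counts per library and is 1 of the 5 loci with the most counts. When each of the 16 libraries was left out in turn, Fars2 no longer passed the limits in 3 cases, Xkr4 in 6, the Nsun2 locus in 8 and the Gm10801 locus in 10. In C all 4 had the opposite sign, with −0.63 at Xkr4, 0.45 at Fars2, 0.22 at the Nsun2 locus and 0.21 at the Gm10801 locus. As the list was chosen for an interaction, such turns are no separate result. The locus assigned to A830073O21Rik (chr7:73774794-73775963) did not pass (log2 fold change 0.35, unadjusted p = 0.059 in edgeR), and in C it was −0.26. The study had reported higher methylation there in Tph2+/- MS than in Tph2+/+ MS.

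The locus assigned to Cck, the gene of the neuropeptide cholecystokinin, lies at chr9:121477914-121478574, 2995 bp from Trak1, the nearest RefSeq gene. Its most CpG-rich 150 bases (plus strand, GRCm38, RefSeq) hold 3 CpG, in capitals.
Cck locus, chr9:121478266-121478415: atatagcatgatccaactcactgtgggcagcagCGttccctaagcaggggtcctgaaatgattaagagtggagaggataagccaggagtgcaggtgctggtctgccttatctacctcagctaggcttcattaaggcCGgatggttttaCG
The Tph2+/+ MS libraries had 0.607 to 1.46 CPM (median 1.17) and the Tph2+/- MS libraries 1.22 to 2.19 CPM (median 1.80), with 7 of 8 heterozygous libraries above all wildtype ones. The log2 fold change of 0.65 (SE 0.26) did not pass the limits (unadjusted p = 0.0162 in edgeR), with 6 to 28 counts per library. In C it was −0.38. The genotype effect in MS minus that in C was 1.03 on the log2 scale (SE 0.38, unadjusted p = 0.00761 in edgeR), which passed the limits. As the list was chosen for an interaction, that is no separate result. The study had reported higher methylation at this locus in Tph2+/- MS than in Tph2+/+ MS, by a Mann-Whitney test with corrected p-values. The direction found here was the same, and the test and limits were different. This locus did not lie within 5 kb of Cck. None of the 3 loci in or within 5 kb of Cck passed the limits (smallest unadjusted p = 0.642 in edgeR). Their sum was 8.155 ± 1.03 CPM in Tph2+/+ MS and 8.56 ± 0.927 CPM in Tph2+/- MS (SD, n = 8 each).

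By annotation, loci in coding exons past the limits were mostly higher (128 higher and 51 lower), beside 47.9% higher over all loci past the limits. Those in promoters (27 and 47) and between genes (199 higher of 473) were more often lower. Introns (177 and 199, 47.1% higher) were close to the share over all loci past the limits. The majority of higher loci in coding exons was kept in every setting tried on the MS libraries, but its size varied from 54.55 to 97.8%. It was 114 to 95 in the libraries S27 to S41 alone, 57.5% higher without replicate 1 of each group, 70.2% higher in DESeq2, 70.7% with an offset fitted on CpG density, and 97.8% higher with total counts in place of TMM. Without replicate 1 of Tph2+/- MS the share of higher loci in coding exons fell from 71.5% to 58.9%. Over all loci past the limits, the share of higher ones was 46.5% within S27 to S41 and 92.3% with total counts. In C coding exons had 78 higher and 135 lower loci, beside 630 and 642 over all loci past the limits. By CpG density, the lowest quintile of all loci had 318 loci past the limits, 212 of them lower, which became 160 higher and 175 lower with an offset fitted on CpG density. The highest quintile had 69 higher and 108 lower, which turned to 206 and 89 within S27 to S41. The heterozygous replicate 1 had the highest slope of counts on CpG density of its group (0.161, the other 7 between −0.0815 and 0.0205), and its part in these splits was measured only by leaving it out.

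**Figure D5:**
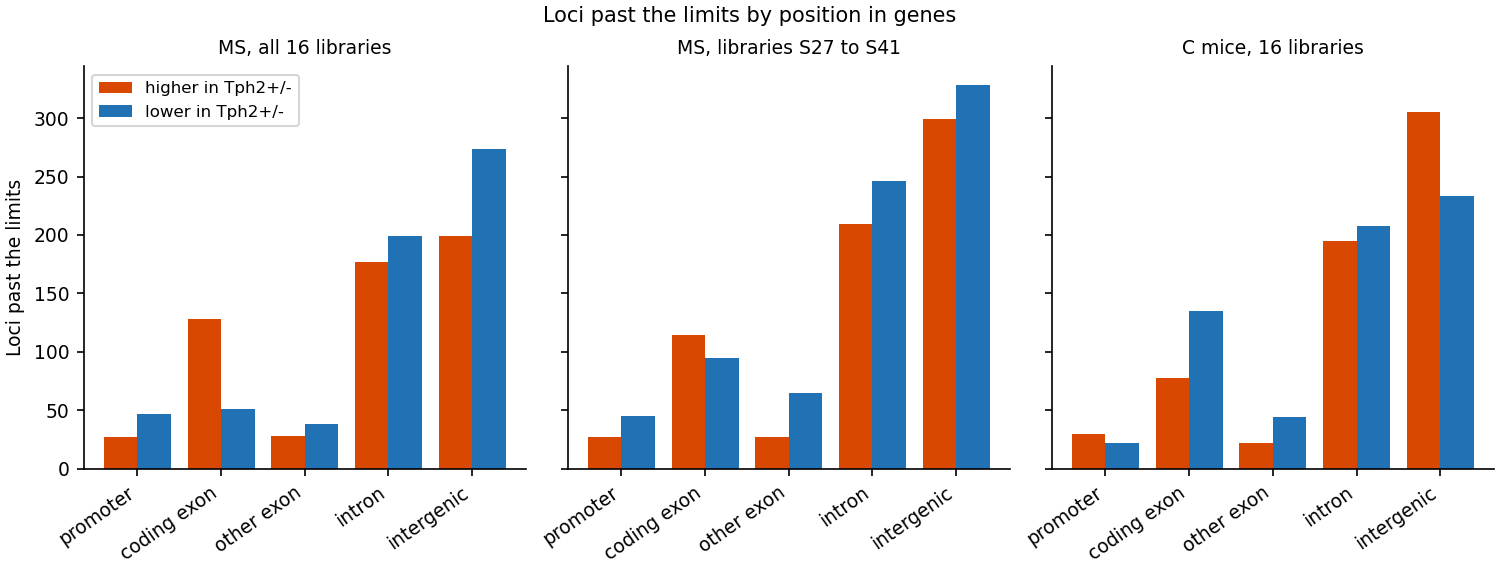
Number of loci past the limits (vertical axis, bars from 0) that were higher or lower in Tph2+/- by locus class (horizontal axis), in all 16 MS libraries, in the MS libraries S27 to S41 and in the 16 C libraries. Coding exons have 128 higher and 51 lower loci in the first panel, 114 and 95 in the second, and 78 and 135 in the last.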

How the data were processed

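MBD-seq was run on amygdala DNA of 48 mice. The authors sheared DNA by sonication, captured methylated fragments, sequenced 50 bp paired ends, aligned them with Bowtie2 2.1.0 to GRCm38 (mm10), called peaks with MACS and counted reads per merged peak with DiffBind 2.0.9. The deposited values are raw counts per locus, without normalization, and every column was matched to a sample by its label (0 columns not mapped).

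From these counts, edgeR 4.0.16 in R 4.3.3 (TMM factors, trended dispersion, robust quasi-likelihood test, Benjamini-Hochberg adjustment over 187695 loci) was fitted to the 16 MS libraries, with TMM estimated within each fit, while the CPM values printed were scaled with TMM over all 48 libraries. No low-count filter was used. The limits were an unadjusted p under 0.01 with a log2 fold change beyond 0.2, and an adjusted p under 0.05. Single values per library were compared by 2-sided exact permutation over 12870 splits. DESeq2 1.42.0, limma 3.58.1 (voom), other scalings and subsets of libraries served as alternatives. Scripts were checked on simulated data.

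Loci were annotated with RefSeq GRCm38.p6, and copies were sought with minimap2 2.31. Named loci were those at and next to Tph2, those of adjusted p under 0.05, the 10 of smallest p per direction at protein-coding genes, up to 5 per direction at promoters, the 8 loci of the list of the study, those past the limits in 8 gene lists and those past the limits within 10 Mb of Tph2. The members and lists were chosen with earlier results of these data known. The comparison of Tph2-/- C with Tph2+/+ C and the fit without replicate 1 of each MS group were added after the data had been seen. Labels call the animals separate samples. Counting intervals would cover counting error only and are not given.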

Additional observations from a re-analysis of the deposited data

Results flagged for a closer look

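In 13 of the groups of 8 libraries examined, 1 library stood so far from the nearest other that the gap passed Dixon's 95% limit, where chance alone gives about 9 (1 in 20 groups). In Tph2+/+ MS these were replicate 1 at the Prima1 locus (4.56 CPM, the others 1.92 to 3.04), replicate 6 at the Nsun2 locus near Tent4a (6.71 CPM, 3.11 to 4.66), replicate 5 at Xkr4 (1.87 CPM, 0.887 to 1.29), replicate 3 at Tet3 (1.84 CPM, 0 to 0.81) and replicate 7 in its share of counts in noncoding exons (3.31%, 3.62 to 3.70%). In Tph2+/- MS they were replicate 3 at Tnc (6.5 CPM, 2.39 to 3.99), replicate 7 at the locus near Afm (3.57 CPM, 1.16 to 1.93), replicate 4 at Sgk1 (3.48 CPM, 1.01 to 1.53) and replicate 8 at Gm32717, chr10:118241257-118241919 (2.48 CPM, 0.332 to 1.17).

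Replicate 1 of Tph2+/- MS stood apart in 4 measures. These were its slope of counts on CpG density (0.161, the others −0.0815 to 0.0205), its shares of counts between genes (42.2%, 38.5 to 40.2%), at loci of over 5 CpG per 100 bp (1.31%, 0.503 to 0.766%) and on chromosome X (2.72%, 1.73 to 2.11%). For the difference of the genotype effect between MS and C, edgeR gave 0 loci of adjusted p under 0.05, with 7461 at an unadjusted p under 0.05.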

How the results depend on the processing

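The 1168 loci past the limits were 1006 to 1472 when 1 library was left out, 788 with a minimum mean count of 20 (of 134685 loci tested) and 1691 at most, with total counts. Loci of adjusted p under 0.05 numbered 3 in DESeq2, 2 with an offset or a covariate for CpG density, and 0 with voom, with total counts, with all 48 or 46 libraries in the fit, within S27 to S41, within S18 to S26 and without replicate 1 of each group (6853 to 9511 at an unadjusted p under 0.05), and 0 to 1 when 1 library was left out. In C they were 0 with all 48 libraries and 0 in the libraries S1 to S17. The fit of 46 libraries was without replicates 3 and 7 of Tph2-/- MS, those of lowest total count. They need not be the outliers that the study left out. The adjusted p of the Gm32802 locus lay between 0.00084 and 1 over these alternatives. All 21 chromosome 10 loci stayed lower when any 1 library was left out (21 to 21), 9 to 13 of them past the limits. Within S18 to S26, 19 of the 21 were lower and 3 passed. Of 1690 values of 55 loci under 31 alternatives (the named loci, without 14 inside Tph2 that are given by their range and sum, and without those of the 21 given as a group), 1548 kept direction and side of the threshold, 114 no longer passed, 26 came to pass and 2 turned sign, both at the locus upstream of Tph2 near Tbc1d15 (0.148 within S18 to S26, and −0.206 to 0.004 when 1 library was left out, the latter without Tph2+/+ MS replicate 7). Library measures that turned sign were the CpG slope (0.0153) and the share at over 5 CpG per 100 bp (0.0371 percentage points) within S27 to S41. Without the 5 loci of most counts, so did the shares in noncoding exons (−0.0618), between genes (−0.238), under 1 CpG per 100 bp (−0.0433), and on chromosomes X (−0.0747) and Y (−0.0490), all with an exact p over 0.05. The Tph2 sum turned to 1.07 CPM higher with total counts. The causes were not tested.

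Same-numbered libraries of the MS groups deviated together with correlations of −0.079 to 0.290, 1 of 8 over 0.1, and 2 libraries correlated best with their own number, so the numbers were not taken to pair samples. With the replicate block 1272 loci passed the limits and 1 had an adjusted p under 0.05 in MS, 1231 and 2 in C, 1279 and 0 for the difference, and 12 of the 21 loci passed, 21 being lower. At a median count of 26.25 and a median SE of 0.21, small differences could not be told from the spread of the libraries. That SE is not a limit of detection. The loci past the limits had a median size of 0.65 on the log2 scale, and the smallest was 0.26.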

Other observations

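At the 1168 loci past the limits, the mean of either MS group was set beside the mean of the 16 C libraries of Tph2+/+ and Tph2+/- on the log2(CPM + 0.1) scale. The Tph2+/+ MS mean was the further of both at 767 loci (65.7%), beside 56.0% of all loci. Among the loci higher in Tph2+/- MS it was so at 408 of 559 (73.0%), and among the lower ones at 359 of 609. At the 20 named protein-coding genes it was so at 14. These are counts without a test, since the loci were chosen on the MS libraries. On chromosome Y 2 loci past the limits were higher and 14 lower in Tph2+/- MS (0.599% of its loci), and on chromosome X 3 were higher and 10 lower (0.423%), beside 0.622% of all loci. The balance of directions over all loci turned with the scaling, as given above.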
